A study of Mus musculus with 3 samples.

Results

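Lysosomal hydrolases, cathepsins, lysosomal membrane proteins and subunits of the lysosomal proton pump were followed in mouse dendritic cells (DCs) grown from wild-type bone marrow. The genes came from a named list of 47, of which 45 had at least 1 probe set naming that gene alone, among 17886 genes measured in all. Cd63, a membrane protein of late endosomes, and Atp6v0c, which encodes the ring subunit of the pump, were not analysed here. Of the 45 genes, 12 encode cathepsins and other proteases, 8 glycosidases, 6 enzymes and carriers of lipids, and 2 other proteins of the lumen. A further 7 encode membrane proteins, 9 encode pump subunits, and Tfeb encodes a transcription factor.

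Marrow was kept in granulocyte-macrophage colony-stimulating factor for 5 days, and DCs were sorted by whether their surface carried PDL2, which binds PD-1 on T cells. The 3 groups were untreated PDL2-positive cells, PDL2-negative cells given lipopolysaccharide (LPS, a bacterial cell wall component) at 100 ng/ml, and untreated PDL2-negative cells. The time spent in LPS, the strain and age of the mice and the number of animals are not given in the sources used here. Each group was read on 1 array of total RNA. The arrays therefore hold no measure of biological spread, no p-value could be computed, and genes are described by the size of their difference.

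Lysosomes are acidic compartments in which proteins, glycans and lipids taken up from outside or delivered from the cytoplasm are broken down. The vacuolar proton pump keeps them acid. Its V1 sector on the cytoplasmic face splits ATP and its V0 sector in the membrane carries the protons. In DCs the same proteases trim antigens and digest the invariant chain, so that MHC class II molecules can be loaded, and acidity and protease content are known to be regulated as DCs mature. TFEB binds E-box sequences near many lysosome genes and activates them.

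Values are quantile-normalized log2 signals, on which a difference of 1 is 2-fold. Genes at least 2-fold apart were called higher or lower, after signals under a floor of 5.58, the median of all signals, had been raised to it. Signals of different genes come from different probes and cannot be set against each other, so only the arrays are compared within a gene. All 45 genes lay above the floor on all 3 arrays, though the floor was not tested as a limit of detection. In bulk RNA, a smaller share of cells making a transcript and less of it per cell cannot be told apart.

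The DC label was set beside 8 DC markers, among them Itgax, Flt3, Zbtb46 and Cd74. All 8 were above the floor on all 3 arrays, but the floor is only the median of all signals. In PDL2-negative untreated cells Flt3 read 7.51 and Zbtb46 7.08, while Itgax read 11.48 and Cd74 14.33. The summed linear signal of the DC list was 73738 in PDL2-positive cells, 54367 in LPS-treated cells and 44840 in PDL2-negative untreated cells. Macrophage markers were also present, and unevenly. Of 12 listed, 11 were measured, Cd163 was below the floor on every array, and the summed linear signal of the list was 3272 in PDL2-positive cells, 46433 in LPS-treated cells and 64110 in PDL2-negative untreated cells. Of 5 measured mast cell or basophil markers, Kit, Cpa3 and Mcpt8 were above the floor on all 3 arrays. Kit read 9.78 in PDL2-positive, 6.97 in LPS-treated and 6.26 in PDL2-negative untreated cells, while Cpa3 and Mcpt8 did not differ by 2-fold. Of 4 measured lymphocyte markers, 1 was above the floor on each array. That marker was Cd3e, whose deposited value was the same on all 3 arrays, as it was for 18.2% of all probe sets.

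**Figure D1:**
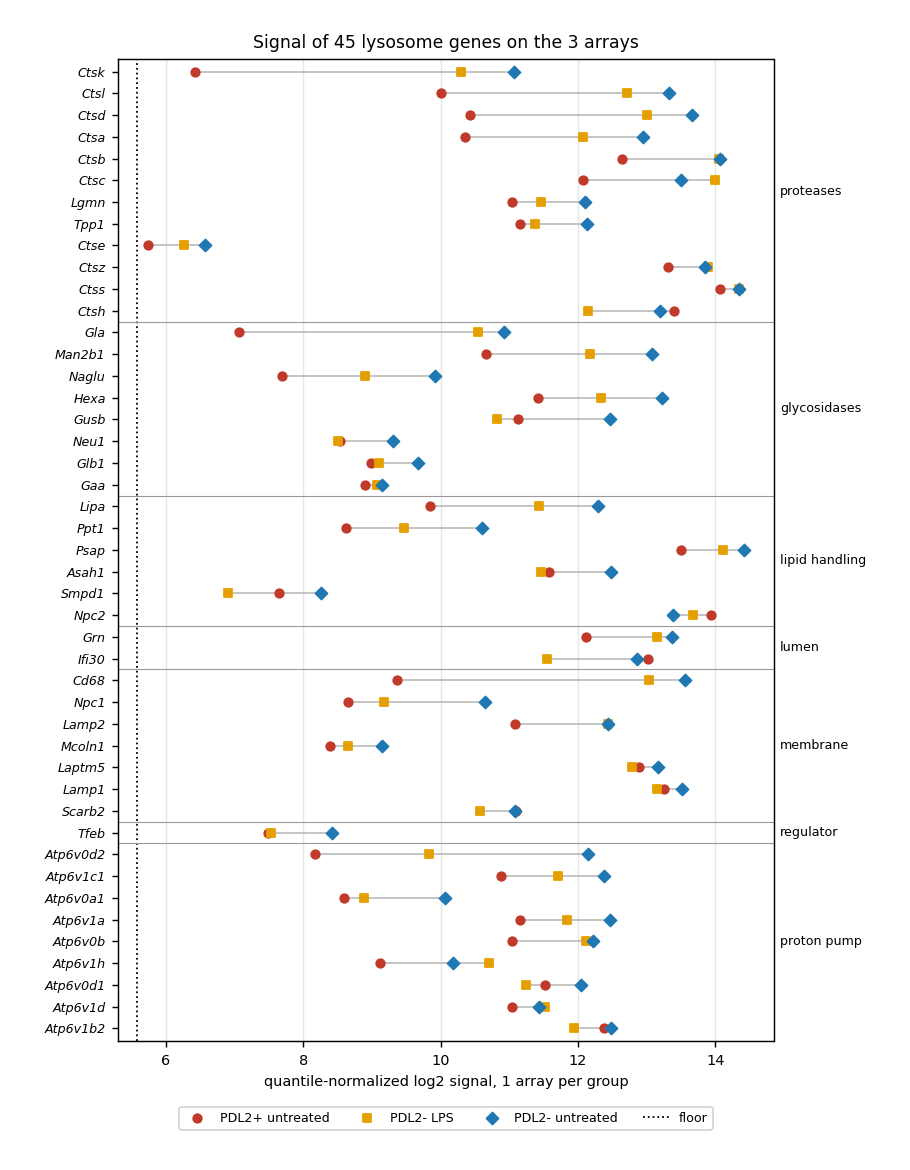
Quantile-normalized log2 signal (horizontal axis) of the 45 measured genes in rows, grouped by role, with 1 point per array: PDL2-positive untreated (circle), PDL2-negative with LPS (square) and PDL2-negative untreated (diamond). The dotted line is the floor of 5.58; Ctsk, Cd68, Gla and Atp6v0d2 show the widest lines, with PDL2-positive cells at the low end.

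The first comparison sets PDL2-positive against PDL2-negative DCs, both untreated. Of the 45 genes, 24 (53.3%) were lower in PDL2-positive cells and 0 were higher; the shares among all 10926 genes above the floor came to 13.0% lower and 10.1% higher. The median log2 difference was -1.06 over the 45 genes, against 0.01 over all genes. The genes ran from Ctsk at -4.64 to Npc2 at 0.56, and 4 of the 45 lay above 0.

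**Figure D2:**
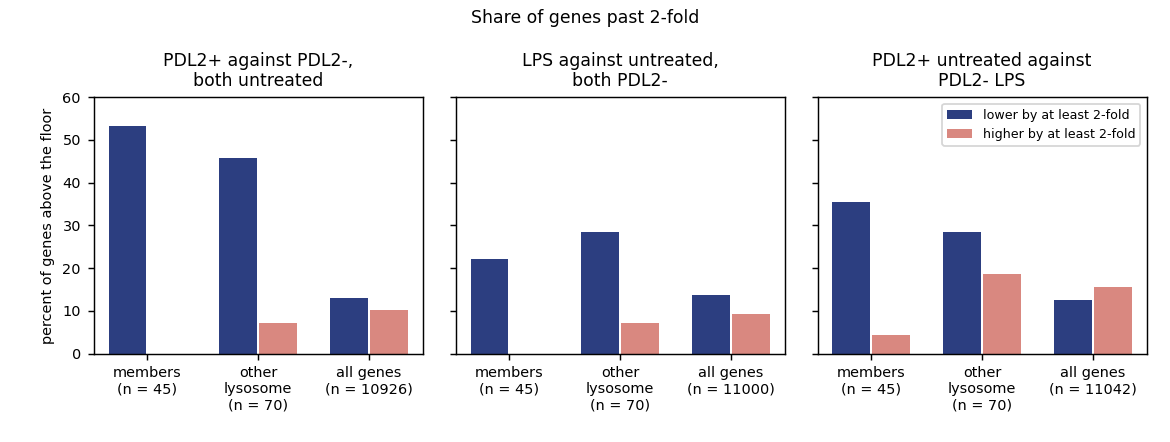
Percent of genes above the floor that were lower (dark bars) or higher (light bars) by at least 2-fold, for the listed lysosome genes, other lysosome genes and all genes, in 3 comparisons of 1 array against 1 array. Lower genes made up 53.3% of the listed genes in PDL2-positive against PDL2-negative cells and 13.0% of all genes.

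Among the cathepsins and other proteases, 7 of 12 were lower in PDL2-positive cells, and their median was -1.24. Ctsk encodes cathepsin K, a cysteine protease best known for degrading collagen in osteoclasts. Its log2 signal was 6.43 in PDL2-positive, 10.30 in LPS-treated and 11.07 in PDL2-negative untreated cells. The difference between the untreated populations was -4.64, and 50 of the 10926 genes had a decrease at least as large. The PDL2-positive array was far below both PDL2-negative arrays, which lay within 2-fold of each other.

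Ctsl encodes cathepsin L, an endopeptidase that can digest the invariant chain. It read 10.01 in PDL2-positive, 12.72 in LPS-treated and 13.33 in PDL2-negative untreated cells, 9.97-fold lower in the first than in the last. Ctsd, which encodes the aspartic protease cathepsin D, read 10.43, 13.01 and 13.67 on the PDL2-positive, LPS and PDL2-negative untreated arrays, a 9.40-fold difference between the untreated populations. Ctsa encodes a carboxypeptidase that also shields beta-galactosidase and neuraminidase from degradation. It read 10.35, 12.08 and 12.95 on the same arrays, 6.08-fold lower in PDL2-positive than PDL2-negative untreated cells, although a dimmer probe set gave a log2 difference of -0.54. In these 3 genes, as in Ctsk, PDL2-positive cells were lowest and PDL2-negative untreated cells highest.

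Ctsb and Ctsc encode cathepsin B and the dipeptidyl peptidase that activates granule serine proteases. Ctsb read 12.64 in PDL2-positive, 14.06 in LPS-treated and 14.07 in PDL2-negative untreated cells, 2.70-fold lower in the first than in the last. Its 5 probe sets differed by between -3.07 and -1.35. Only 0.0986% of all signals were brighter than its highest, and a probe set near the top of the scale can understate a difference, which was not tested here. Ctsc read 12.07, 14.00 and 13.49 in PDL2-positive, LPS-treated and PDL2-negative untreated cells, 2.69-fold lower in PDL2-positive than in untreated PDL2-negative cells, and highest with LPS. Lgmn, the asparagine-specific protease, read 11.05, 11.46 and 12.11 on these arrays, a 2.09-fold difference.

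The other proteases did not differ by 2-fold between the untreated populations. Ctss encodes cathepsin S, the main protease for the last steps of invariant chain digestion in DCs. It read 14.06 in PDL2-positive cells and 14.34 in both LPS-treated and PDL2-negative untreated cells, and 0.0363% of all signals were brighter than its highest. Ctsh, an aminopeptidase, read 13.40, 12.14 and 13.19 on the PDL2-positive, LPS and PDL2-negative untreated arrays, with the LPS array lowest, and its difference of 0.21 was the only one above 0 among the proteases. Ctsz, a carboxypeptidase, differed by -0.54, the aspartic protease gene Ctse by -0.82, and Tpp1, a tripeptidyl peptidase, by -0.97, just short of 2-fold.

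Of the 8 glycosidases, 5 were lower in PDL2-positive cells and all 8 lay below 0, with a median of -1.58. Gla encodes the alpha-galactosidase that removes terminal galactose from glycolipids. It read 7.06 in PDL2-positive, 10.54 in LPS-treated and 10.92 in PDL2-negative untreated cells, 14.5-fold lower in the first than in the last, and a second probe set gave -2.80. Man2b1, the lysosomal alpha-mannosidase, read 10.66, 12.18 and 13.08 on these arrays, 5.37-fold lower in PDL2-positive than PDL2-negative untreated cells, and differed by -0.78 by its other probe set. Naglu takes part in heparan sulfate breakdown. It read 7.69 in PDL2-positive, 8.91 in LPS-treated and 9.92 in PDL2-negative untreated cells, 4.68-fold lower between the untreated populations.

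Hexa, a subunit of beta-hexosaminidase, read 11.41 in PDL2-positive, 12.34 in LPS-treated and 13.23 in PDL2-negative untreated cells, a 3.52-fold difference between the untreated populations. In Gusb, the beta-glucuronidase gene, the LPS array was the lowest: it read 11.12 in PDL2-positive, 10.82 in LPS-treated and 12.46 in PDL2-negative untreated cells, 2.53-fold lower in the first than in the last. The sialidase gene Neu1 differed by -0.77, the beta-galactosidase gene Glb1 by -0.69 and the acid alpha-glucosidase gene Gaa by -0.25, none of them by 2-fold.

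Genes for lipid breakdown and transport were past 2-fold in 2 of 6 cases, with a median of -0.91. Lipa encodes the acid lipase that frees cholesterol from its esters. It read 9.85 in PDL2-positive, 11.43 in LPS-treated and 12.29 in PDL2-negative untreated cells, 5.44-fold lower in the first than in the last, and its 3 probe sets lay between -2.97 and -2.44. Ppt1, which strips palmitate from proteins, read 8.62, 9.47 and 10.60 on these arrays, 3.94-fold lower. Its second brightest probe set, about as bright, gave -2.34 between the untreated populations. A dim set gave 0.01, but it read close to the floor, at 5.64 in PDL2-positive and 5.63 in PDL2-negative untreated cells. Psap, the precursor of the saposins, read 13.50, 14.12 and 14.41 on these arrays and differed by -0.92 between the untreated populations. Its second probe set, about as bright, gave -1.06, past 2-fold.

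Asah1, the acid ceramidase, and Smpd1, the acid sphingomyelinase, were lowest with LPS. Asah1 read 11.57 in PDL2-positive, 11.47 in LPS-treated and 12.49 in PDL2-negative untreated cells, and Smpd1 read 7.65, 6.91 and 8.26 on these arrays. Their differences between the untreated populations were -0.91 and -0.60. Npc2, which carries cholesterol in the lumen, read 13.94, 13.67 and 13.38 and differed by 0.56. Npc1, the membrane protein to which Npc2 hands cholesterol, lay on the other side of 0: it read 8.65 in PDL2-positive, 9.18 in LPS-treated and 10.65 in PDL2-negative untreated cells, 4.01-fold lower in the first than in the last.

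Among the 7 membrane proteins, 3 were lower in PDL2-positive cells: Cd68, Npc1 and Lamp2. Cd68 encodes macrosialin, a glycoprotein used as a marker of macrophages. It read 9.37 in PDL2-positive, 13.03 in LPS-treated and 13.56 in PDL2-negative untreated cells, 18.3-fold lower in the first than in the last. Lamp2 read 11.08, 12.44 and 12.43 on these arrays, 2.56-fold lower. Its other probe sets gave -0.93 and -1.02, the first of them not past 2-fold. Lamp1, the other major glycoprotein of the lysosomal membrane, read 13.25, 13.15 and 13.52 and differed by -0.27. Laptm5 differed by -0.28, Scarb2, the receptor that delivers glucocerebrosidase, by 0.02, and the calcium channel gene Mcoln1 by -0.75.

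In the lumen, Grn, the progranulin gene, read 12.11 in PDL2-positive, 13.16 in LPS-treated and 13.37 in PDL2-negative untreated cells, 2.39-fold lower in the first than in the last, with its probe sets between -2.41 and -1.26. Ifi30 encodes the thiol reductase that opens disulfide bonds of antigens. It read 13.02, 11.55 and 12.85 on these arrays and differed by 0.16 between the untreated populations, so that the LPS array stood apart from the others.

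Pump subunits were lower in PDL2-positive cells for 6 of 9 genes, and all 9 lay below 0, with a median of -1.18. The largest difference was that of Atp6v0d2, a V0 subunit isoform of osteoclasts and macrophages. It read 8.17 in PDL2-positive, 9.84 in LPS-treated and 12.15 in PDL2-negative untreated cells, and its second probe set read 7.80, 10.08 and 11.88 on the same arrays. The fold was 15.8 between the untreated populations, with each array well apart from the next. Atp6v0d1, the isoform found in most cells, differed by -0.53. Atp6v0a1 read 8.60, 8.88 and 10.07 on the PDL2-positive, LPS and PDL2-negative untreated arrays, 2.78-fold lower in PDL2-positive cells, with probe sets between -1.82 and 0.03. Atp6v0b read 11.04, 12.12 and 12.22 on these arrays, 2.26-fold lower, with probe sets between -1.46 and -0.53.

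In the V1 sector 3 of 5 genes were lower. The catalytic subunit gene Atp6v1a read 11.16 in PDL2-positive, 11.84 in LPS-treated and 12.47 in PDL2-negative untreated cells, 2.48-fold lower in the first than in the last. Atp6v1c1 read 10.87, 11.70 and 12.39 on these arrays, 2.85-fold lower, with probe sets between -1.51 and -1.39. Atp6v1h was highest with LPS. It read 9.12 in PDL2-positive, 10.70 in LPS-treated and 10.18 in PDL2-negative untreated cells, and its 2.09-fold difference rests on the brightest probe set, since a dimmer one gave 0.14. Atp6v1b2 read 12.39, 11.94 and 12.48 on these arrays and differed by -0.09, and Atp6v1d differed by -0.38.

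**Figure D3:**
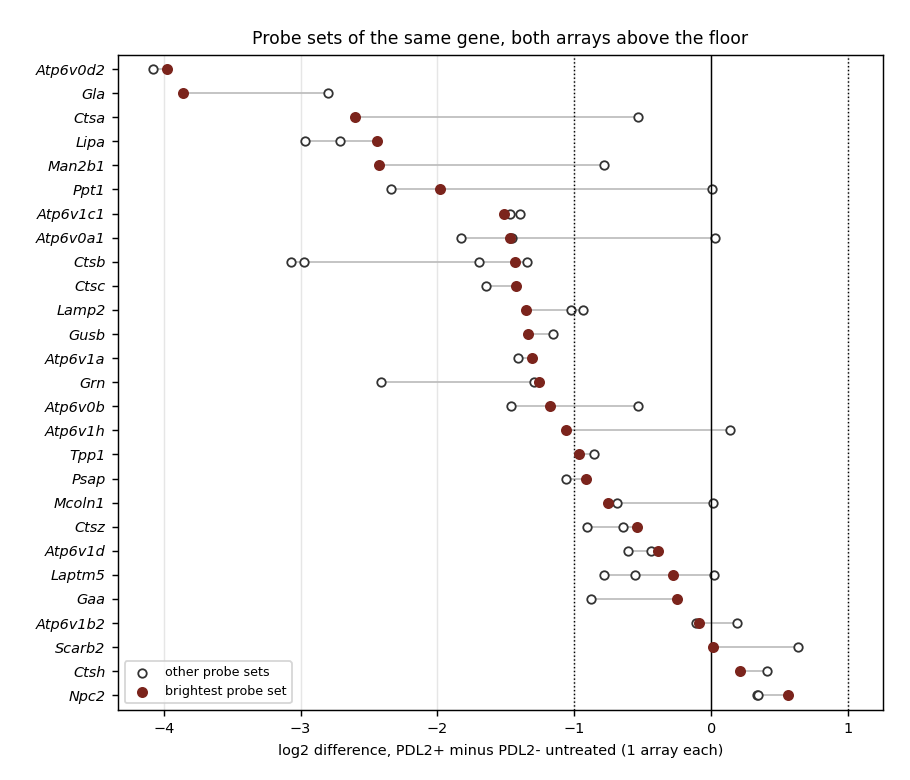
Log2 difference of PDL2-positive minus PDL2-negative untreated cells (horizontal axis) for each probe set above the floor on both arrays, in genes with at least 2 such sets; filled points are the brightest sets. The sets of Lipa and Atp6v0d2 all lie beyond 2-fold (dotted lines). Those of Ctsa, Man2b1, Ppt1, Psap, Lamp2, Atp6v0a1, Atp6v0b and Atp6v1h lie on both sides of it.

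Of the 24 lower genes, 16 had a second probe set that both arrays measured above the floor; it gave the same direction in 15 and was also past 2-fold in 12. The spread of single probe sets, a robust SD taken from the 2 brightest sets of 4243 genes, was 0.21 on the log2 scale. It is technical and says nothing of variation between cultures or mice. In the same comparison all 10 macrophage markers that passed the floor had lower signals in PDL2-positive cells, with a median of -4.81. Among them were Adgre1 (-3.95), Csf1r (-3.36) and C1qa (-5.40). Of 8 DC markers, 5 were higher: Ccr7 (6.26), Fscn1 (5.19), Zbtb46 (2.37), Dpp4 (2.25) and Flt3 (1.89). Another, Itgax, was lower (-1.67). Of 9 neutrophil markers, 1, Mmp8, was lower (-4.74) and 0 were higher, with a median of -0.06 over the list. Of 7 osteoclast markers, Calcr, Ocstamp and Oscar were below the floor on all 3 arrays. The summed linear signal was 592 in PDL2-positive, 3839 in LPS-treated and 2314 in PDL2-negative untreated cells. Of the 4 above the floor, 3 were lower in PDL2-positive than PDL2-negative untreated cells. After LPS, Acp5 was higher (1.31) and Nfatc1 lower (-1.83), so the sum does not describe each marker. The part of these markers in the lysosome genes' differences was not tested.

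The second comparison sets LPS-treated against untreated PDL2-negative cells, and both comparisons so far share the PDL2-negative untreated array. Of the 45 genes, 10 (22.2%) were lower after LPS and 0 were higher; the shares among all 11000 genes above the floor came to 13.8% lower and 9.17% higher. The median log2 difference was -0.63 against 0.02 over all genes, with 38 of the 45 genes below 0 and the range running from -2.31 to 0.52. The SD of the differences over the 45 genes was 0.56 after LPS, beside 1.23 for PDL2-positive minus PDL2-negative untreated cells.

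Atp6v0d2 had the largest decrease after LPS, 4.97-fold, with its probe sets at -2.31 and -1.80. Gusb was 3.11-fold lower, and its second probe set gave -1.39. Npc1 was 2.78-fold and Smpd1 2.54-fold lower after LPS, each by the only probe set above the floor. Ifi30 was 2.47-fold lower, and Ctsh 2.08-fold lower with -1.08 by its second probe set. The remaining lower genes were Atp6v0a1 (2.27-fold), Ppt1 (2.19-fold), Asah1 and Naglu (both 2.02-fold). For Atp6v0a1 and Ppt1 the probe sets were not all in 1 direction, lying between -1.18 and 0.31 and between -1.13 and 0.05. The second brightest sets gave -1.06 and -0.95. The sets above 0 were dim, at 6.24 for Atp6v0a1 and 5.63 for Ppt1 in PDL2-negative untreated cells.

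By role, 3 of 6 lipid genes, 2 of 8 glycosidases, 2 of 9 pump genes, 1 of 12 proteases, 1 of 7 membrane proteins and 1 of 2 lumen proteins were lower after LPS. The 2 lower pump genes were of the V0 sector, and the 5 V1 genes ran from -0.68 for Atp6v1c1 to 0.52 for Atp6v1h. Ctsk differed by -0.77, Ctsl by -0.61, Ctsd by -0.66 and Ctsa by -0.88 after LPS, none of them by 2-fold. By their brightest sets Ctsb, Ctss, Ctsz and Lamp2 differed by between -0.01 and 0.03, while the 3 dimmest of 5 sets of Ctsb gave -0.54, -0.85 and 0.71 and 1 of Lamp2 gave -0.53. Scarb2 differed by -0.50, but by -1.31, past 2-fold, by its other set. Ctsc differed by 0.51 by its brightest probe set, than which 0.125% of all signals were brighter, while its dimmer probe sets gave 1.44 and 2.51, both past 2-fold. Tfeb itself read 7.49 in PDL2-positive, 7.53 in LPS-treated and 8.42 in PDL2-negative untreated cells. It was 1.91-fold lower in PDL2-positive and 1.86-fold lower in LPS-treated than in PDL2-negative untreated cells, past 2-fold in neither comparison.

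**Figure D4:**
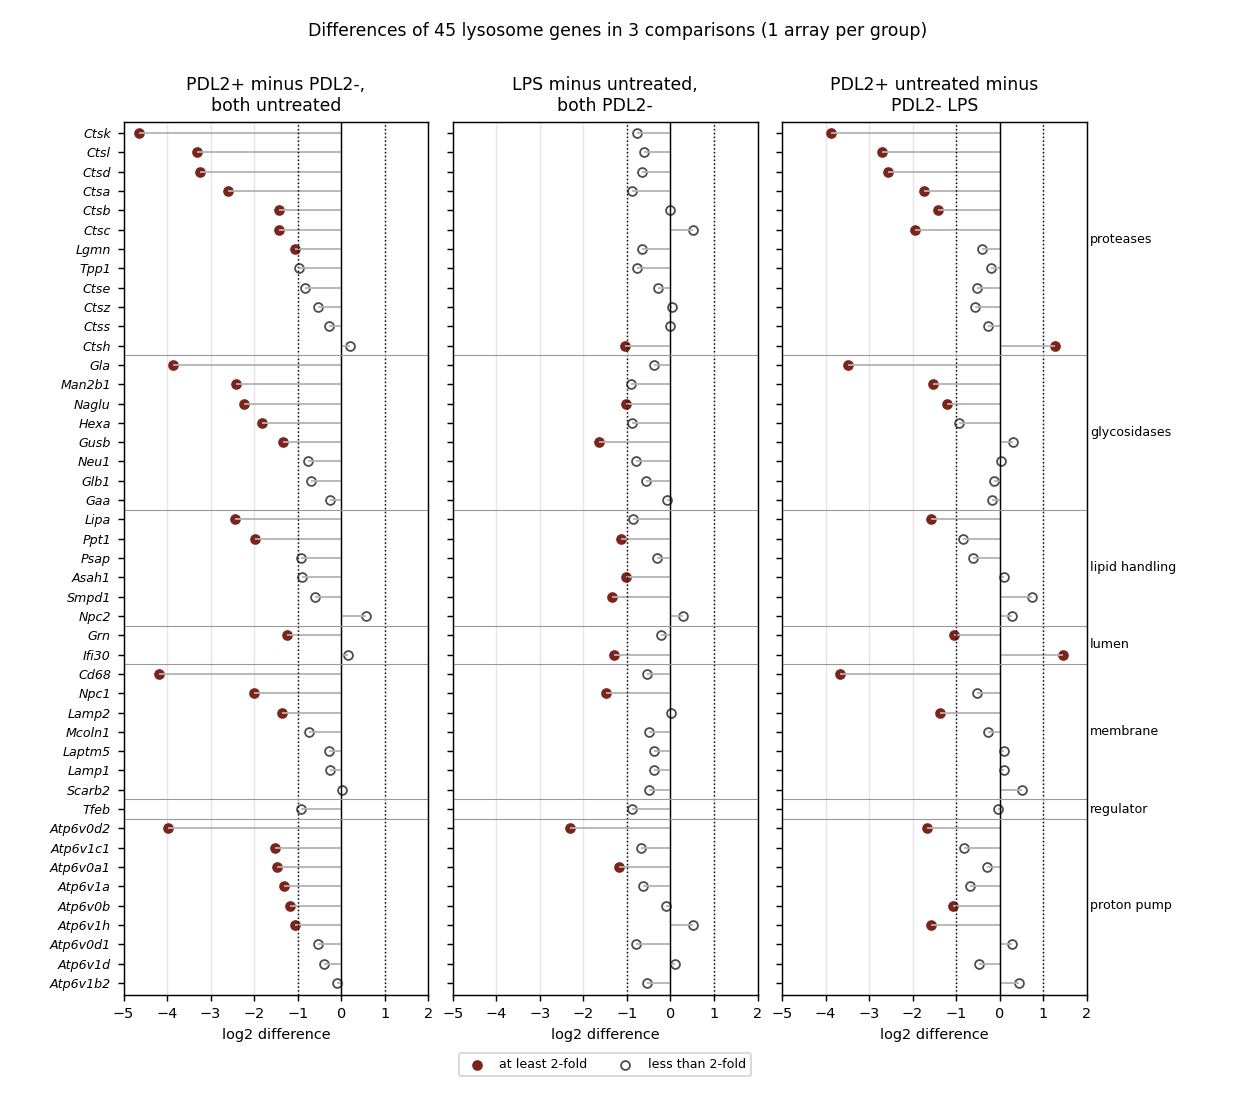
Log2 differences (horizontal axes) of the 45 genes in 3 comparisons of 1 array against 1 array; filled points are past 2-fold (dotted lines) and open points are not. The protease and glycosidase genes reach -4.64 for PDL2-positive minus PDL2-negative untreated cells and lie between -1.64 and 0.51 after LPS.

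After LPS, 3 of these 10 macrophage markers were lower and 1 was higher, and their median was -0.57. Of the 8 DC markers, 2 were higher after LPS, Ccr7 (4.63) and Fscn1 (3.85), and 0 were lower. Of 9 neutrophil markers above the floor, 7 were lower after LPS, with a median of -1.48, and the summed linear signal of that list was 12630 in LPS-treated and 28617 in PDL2-negative untreated cells. The part of these markers in the differences was not tested.

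The third comparison sets PDL2-positive untreated cells directly against LPS-treated PDL2-negative cells. Of the 45 genes, 16 (35.6%) were lower in PDL2-positive cells and 2 were higher; the shares among all 11042 genes above the floor came to 12.6% lower and 15.6% higher. The median was -0.53 against -0.05 over all genes. Ctsk was 14.6-fold, Cd68 12.6-fold, Gla 11.2-fold, Ctsl 6.53-fold and Ctsd 5.95-fold lower in PDL2-positive cells. Ctsc was 3.82-fold, Ctsa 3.31-fold, Atp6v0d2 3.17-fold and Atp6v1h 2.99-fold lower. Lipa, Man2b1, Ctsb, Lamp2, Naglu, Atp6v0b and Grn were lower by between 2.06-fold and 2.98-fold, and for Man2b1 the other probe set gave 1.19. The second brightest sets of Ctsa (-0.45), Lamp2 (-0.41) and Atp6v1h (-0.85) were not past 2-fold. The 2 higher genes were Ifi30, 2.76-fold, and Ctsh, 2.40-fold, and both probe sets of Ctsh were past 2-fold. Gusb, Smpd1, Asah1 and Atp6v0d1 lay between 0.11 and 0.74, and Npc1 at -0.53. Scarb2 differed by 0.51 by the set used and by 1.95 by its other set. In this comparison 10 of 10 macrophage markers had lower signals in PDL2-positive cells (median -4.18). Of 9 neutrophil markers, 6 had higher signals and 1, Mmp8, a lower one (-3.68), with a median of 1.18 over the list. The part of these markers in the differences was not tested. Over the 3 arrays, 35 of the 45 genes were highest in PDL2-negative untreated cells, 33 were lowest in PDL2-positive cells and 11 were lowest in LPS-treated cells.

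The promoters bear on Tfeb, whose product binds the E-box CACGTG, preferably with flanking bases as in TCACGTG. RefSeq promoter windows (build GRCm38.p6), from 250 bases before to 50 bases after the start site, were found for 38 of the 47 listed genes and searched on both strands. The longer motif, which contains the shorter one, was in 13 of the 38 (34.2%), against 3.77% of all 32851 promoter windows and 5.82% of the 14234 array genes with a window. The shorter one was in 14 (36.8%), against 7.15% of the windows and 10.3% of those array genes. Of 56 other lysosome genes with a window, 12 (21.4%) held the longer motif. These are letters found in a window, not measured binding, and the genes were listed as lysosome genes, many of which are known TFEB targets.

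Genes with and without the longer motif were then set side by side. Of the 13 measured genes with TCACGTG, 7 were lower in PDL2-positive than in untreated PDL2-negative cells, with a median of -1.06, and of the 23 measured genes with a window but without it, 12 were lower, with a median of -1.26. After LPS the counts were 2 of 13 and 4 of 23, with medians of -0.63 and -0.61. The stretches below show the motif in 4 genes that were lower in PDL2-positive than untreated PDL2-negative cells (Gla, Ctsd, Ctsa and Naglu). They also show it in 3 that did not differ by 2-fold in that comparison (Lamp1, Ifi30 and Glb1), though Ifi30 was 2.47-fold lower after LPS. The stretches are printed 5′ to 3′ on the gene's strand, with every match in capitals.
Gla, chrX:134601157-134601236, minus strand: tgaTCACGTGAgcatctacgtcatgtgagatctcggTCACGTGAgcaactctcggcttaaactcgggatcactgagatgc
Ctsd, chr7:142387883-142387962, minus strand: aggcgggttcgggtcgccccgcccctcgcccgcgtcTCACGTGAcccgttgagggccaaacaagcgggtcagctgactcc
Ctsa, chr2:164833724-164833803, plus strand: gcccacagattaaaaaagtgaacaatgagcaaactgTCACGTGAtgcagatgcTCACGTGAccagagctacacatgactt
Naglu, chr11:101069984-101070063, plus strand: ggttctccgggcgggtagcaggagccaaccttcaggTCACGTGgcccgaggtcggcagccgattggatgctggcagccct
Lamp1, chr8:13159079-13159158, plus strand: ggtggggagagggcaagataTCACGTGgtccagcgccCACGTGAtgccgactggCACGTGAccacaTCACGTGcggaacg
Ifi30, chr8:70766817-70766896, minus strand: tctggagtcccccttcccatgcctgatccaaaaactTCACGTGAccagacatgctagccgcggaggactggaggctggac
Glb1, chr9:114400993-114401072, plus strand: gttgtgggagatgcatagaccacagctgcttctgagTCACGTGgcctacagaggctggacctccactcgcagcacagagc

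The match nearest the start site began 194 bases upstream of it in Gla, 98 in Ctsd, 73 in Naglu, 196 in Ifi30 and 48 in Glb1. In Ctsa 1 match began 12 bases upstream and another lay past the start site. Lamp1 held 4 matches in its stretch, more than any other gene shown, and differed by -0.27 in PDL2-positive and -0.38 in LPS-treated cells. Gla and Ctsa held 2 each in theirs and differed by -3.86 and -2.60 in PDL2-positive cells. Ctsd held 1 in its stretch and 2 in its whole window, and differed by -3.23. The part of the motif in the differences was not tested.

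Other genes of lysosome biology were taken from a list of 76, of which 70 were measured. In PDL2-positive against PDL2-negative untreated cells 32 (45.7%) were lower and 5 (7.14%) higher, with a median of -0.72, beside 13.0% and 10.1% of all genes. The lower genes included Slc11a1, the metal transporter of phagocyte lysosomes (-4.81), Mitf, a transcription factor of the same family as TFEB (-3.19), and Tcirg1, the pump's V0 isoform of osteoclasts (-2.60). The higher genes, a share below that of all genes, included Laptm4b, a membrane protein (3.23), Gga2, an adaptor in sorting of hydrolases (2.39), and Galc, which splits galactosylceramide (1.36). After LPS 20 (28.6%) were lower and 5 (7.14%) higher, with a median of -0.51, beside 13.8% and 9.17% of all genes. Manba, the beta-mannosidase, was the lowest at -3.30 and Cst7, an inhibitor of cysteine cathepsins, the highest at 3.14, whereas in PDL2-positive cells Cst7 was below the floor, which makes it at least 2.13-fold lower there than in PDL2-negative untreated cells. Of the 8 other pump genes, 3 were lower in PDL2-positive than untreated PDL2-negative cells and 0 after LPS. In PDL2-positive against LPS-treated cells, 20 (28.6%) of the 70 other lysosome genes were lower and 13 (18.6%) higher. Their median was -0.13, and the shares of all genes were 12.6% and 15.6%.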

How the data were processed

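Gene expression was measured in 3 mouse DC samples, 1 array each. The authors deposited 1 value per probe set and array, taken as log2 signal from the range of 3.19 to 14.8. Background correction, normalization and summary method are not given in the sources used here. Their medians were 5.59, 5.56 and 5.59 and their 75th percentiles 7.84, 7.68 and 7.90 in PDL2-positive, LPS and PDL2-negative untreated samples.

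From these, 38533 probe sets were quantile-normalized after 13 control sets were left out (Python 3.11.15, numpy 2.4.6, pandas 2.3.3). Probe sets naming 1 gene (33987) were used, symbols were updated through the Entrez number in a RefSeq table, and the brightest set by mean represented each gene. The floor was the median of all values, and a gene entered a comparison if above it on at least 1 of the 2 arrays. The number of arrays limits the precision. With 1 array per group there is no p-value.

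By rule, values on all 3 arrays are given for members past 2-fold in at least 1 comparison. They are also given for the brightest of each role, and other members are described by difference. Differences by other probe sets are given for some of these members, not for all of them in every comparison. The members and lists were chosen with earlier results of these data known. The method was run on simulated data in which every planted difference was past 2-fold. Those data held no variation between cultures or mice, so they do not measure the error of calls from 1 array per group. Alternatives were the deposited values unchanged, a floor at the 75th percentile or none, 1.5-fold and 3-fold thresholds, and the mean or the second brightest of a gene's probe sets. A planned protein comparison was not made, since no protein table was used here.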

Additional observations from a re-analysis of the deposited data

How the results depend on the processing

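All differences rest on 1 array per group, and the signals of Ctss, Psap and Ctsb lie close to the upper end of the scale. With the deposited values, a floor at the 75th percentile or no floor, every count and median of the 3 comparisons stayed within 1.5 times or within 1 SD of single probe sets. With the floor at the 75th percentile, 54.5% of the members were lower in PDL2-positive than untreated PDL2-negative cells, against 14.0% of 6745 genes. The sizes of some large differences depended on the floor. In that comparison the higher floor gave -3.27 for Ctsk and -3.12 for Gla, in place of -4.64 and -3.86. At 3-fold, 13 members (28.9%, against 7.35% of all genes) were lower in that comparison. After LPS 2 (4.44%) were, a share no higher than the 5.87% of all genes, so the larger share of lower members after LPS was not seen at 3-fold. In PDL2-positive against LPS-treated cells 8 (17.8%) were lower and 0 higher, against 7.997% and 8.02% of all genes. At 1.5-fold, 24 (53.3%) were lower after LPS, against 24.6% of all genes. With the mean over probe sets 1 member (Ctsc) was higher after LPS, and also 1 with the second brightest set, which put 4 (Ctsh, Ifi30, Scarb2 and Man2b1) higher in PDL2-positive than in LPS-treated cells. The second brightest set reversed Atp6v1h between the untreated populations (0.14) and Man2b1 in PDL2-positive against LPS-treated cells (1.19). The cause was not tested. With the second brightest (or only) set, 19 of the 24 members lower in PDL2-positive than untreated PDL2-negative cells were past 2-fold, and Ctsa, Ctsl, Man2b1, Lamp2 and Atp6v1h were not. For Ctsl that set read 4.62 in PDL2-positive cells, below the floor, so its difference of -0.54 is a bound and the decrease may be larger. With the mean, Ppt1 and Atp6v1h were not past 2-fold. After LPS, Ctsh and Asah1 were not past 2-fold with the deposited values, Smpd1 with the higher floor, Smpd1, Ppt1 and Atp6v0a1 with the mean, and Ppt1 with the second brightest set. In PDL2-positive against LPS-treated cells, Ctsa, Man2b1, Lamp2 and Atp6v1h were not with the second brightest set, and Man2b1, Lamp2 and Atp6v1h were not with the mean.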
